A study of Mus musculus with 2 samples.

Results

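The genes described here are 9 that carry hepatic glucose production, glucose breakdown and glycogen storage: *Pck1*, *G6pc*, *Fbp1*, *Gckr*, *Pklr*, *Pfkfb1*, *Slc2a2*, *Gys2* and *Pygl*. They were taken by symbol from the 45777 genes of the deposited transcript table, and estimated counts were summed over their 25 transcripts. All 9 were among the 15857 genes that reached 10 counts in either library. Poly-A RNA was sequenced from liver of C57BL/6 N mice (given in the labels as C57BL/6) in 1 library per group. Both groups were 7 weeks old at the start of a high-fat diet (HFD) of 18 weeks, and both were given an adeno-associated virus (AAV) at week 13, 5 weeks before the end. The control library came from AAV-GFP liver and the other from AAV-*Wee1-AS* liver, where *Wee1-AS* is a long noncoding RNA antisense to *Wee1* whose effect on the liver the comparison addresses. The vector was of serotype 9 with a CMV promoter, which is not restricted to hepatocytes, and *Wee1-AS* itself was not analysed here. The sex of these mice is not given in the sources used here, and nothing in them says that mice were pooled.

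With 1 library per group, no difference has a replicate check and no test was possible. Each ratio is AAV-*Wee1-AS* over AAV-GFP on counts scaled by TMM, which corrects for library size and composition, and is given as log2 with an exact 95% interval that covers counting error only. The estimated counts summed to 55466182 with AAV-GFP and 48079335 with AAV-*Wee1-AS*. Levels are compared between genes in TPM, a unit scaled by transcript length and to an equal sum per library, and every log2 ratio beside them is that of the scaled counts. A ratio above 2 or below 0.5 is called past 2-fold, and only for such ratios is a gene said to have risen or fallen.

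The liver releases glucose between meals and stores it after them. In gluconeogenesis, PCK1 makes phosphoenolpyruvate from oxaloacetate, FBP1 removes a phosphate from fructose 1,6-bisphosphate, and G6PC frees glucose from glucose 6-phosphate, after which GLUT2, the product of *Slc2a2*, lets glucose cross the plasma membrane in either direction. In glycolysis, GCKR is a regulatory protein that restrains entry into the pathway, PFKFB1 makes and degrades fructose 2,6-bisphosphate, the allosteric switch between both directions, and PKLR makes pyruvate. GYS2 builds glycogen and PYGL breaks it down.

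None of the 9 genes passed 2-fold, against 31.0% of all genes past this count minimum (22.5% above 2 and 8.43% below 0.5). Under other settings, *Pfkfb1* passed it with curated transcripts alone (log2 ratio 2.91) and with the length trend removed (1.15). Of the 3978 abundant genes, those that reached 1000 counts in each library, 11.8% passed it (9.48% above and 2.34% below). In all, 6 members, *Pck1*, *G6pc*, *Pfkfb1*, *Slc2a2*, *Gys2* and *Pygl*, had higher scaled counts in the AAV-*Wee1-AS* library, and 3, *Fbp1*, *Gckr* and *Pklr*, had lower ones. The counting interval of all 9 left out a ratio of 1, as it did for 77.0% of all genes and 92.2% of abundant ones. The median log2 ratio of the 9 was 0.26, against 0.00 (-0.00205) over all genes. The median size of the log2 ratio, sign left aside, was 0.39 among the 9, 0.66 over all genes and 0.48 over abundant ones. In bulk liver, fewer cells of a type and less RNA per cell cannot be told apart.

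The members spanned a wide range of levels. In the AAV-GFP library the order in TPM was *Fbp1*, *Pck1*, *Pklr*, *Pygl*, *Slc2a2*, *Gckr*, *G6pc*, *Gys2* and *Pfkfb1*, from 2316 to 20.5. In the AAV-*Wee1-AS* library *Pygl* stood above *Pklr*, and both *G6pc* and *Gys2* stood above *Gckr*. Without replicates, neighbours in either order cannot be set against a spread. The summed level of the 9 genes was 4436 TPM with AAV-GFP and 3854 TPM with AAV-*Wee1-AS*, and *Fbp1*, the most abundant, was lower in the latter by more than this sum was.

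**Figure D1:**
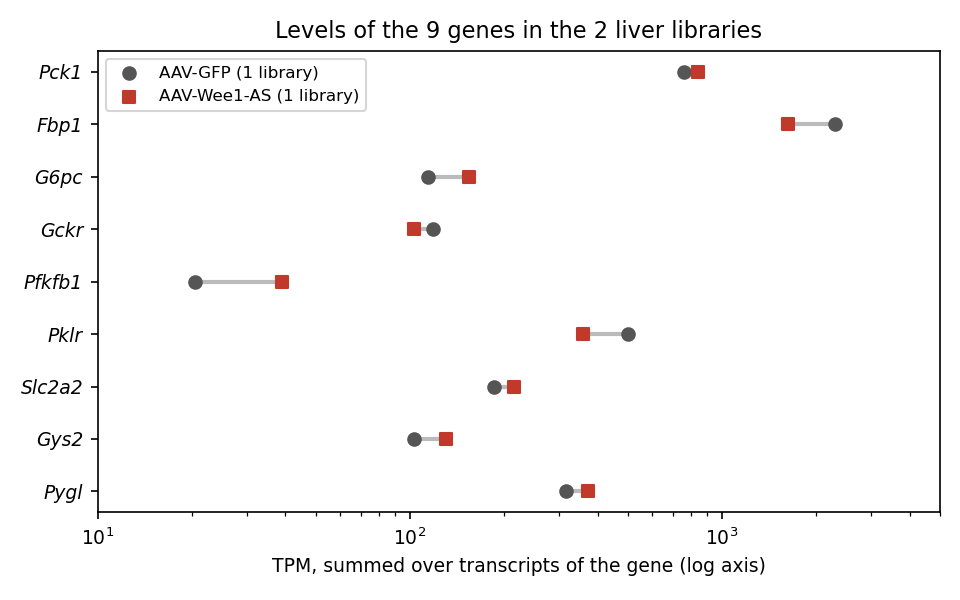
Level of each of the 9 genes in TPM (log axis), with a grey circle for the AAV-GFP library, a red square for the AAV-*Wee1-AS* library and a line between them. *Fbp1* was highest and *Pfkfb1* lowest in both, and *Fbp1*, *Gckr* and *Pklr* were the genes with the square on the left.

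Among the gluconeogenic genes, *Pck1* (NCBI gene 18534; mm10 chr2:173153073-173159274) had 65881 counts with AAV-GFP and 61831 with AAV-*Wee1-AS*. Its level was 759 and 840 TPM, a log2 ratio of 0.19 (0.17 to 0.20). Per unit of depth it was thus slightly higher with *Wee1-AS*, and its rank among all genes by TPM went from 192 to 154. *G6pc* (14377; chr11:101367716-101377903) had 8514 and 9761 counts, with 114 and 155 TPM. Its log2 ratio was 0.47 (0.43 to 0.52), a ratio of 1.39. *Fbp1* (14121; chr13:62864753-62888298) moved the other way, with 114495 and 68154 counts and 2316 and 1636 TPM. Its log2 ratio was -0.47 (-0.48 to -0.46), a ratio of 0.722, close in size to that of *G6pc* with the opposite sign. The 3 dedicated enzymes of this pathway did not share a direction on this scale, while with GC and length trends removed *Fbp1* was at -0.04, beside 0.62 for *Pck1* and 0.27 for *G6pc*.

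Both *Fbp1* transcripts were lower in the AAV-*Wee1-AS* library. The curated transcript had 102455 and 63657 counts, a log2 ratio of -0.41, and the predicted transcript, which starts further upstream, had 12040 and 4497 counts, a log2 ratio of -1.14 (-1.19 to -1.09). Only the predicted transcript passed 2-fold. It made up 9.19% of the TPM of the gene with AAV-GFP and 5.73% with AAV-*Wee1-AS*. *Pck1* and *G6pc* have 1 transcript each in the table.

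Of the genes that control glycolysis, *Pklr* (18770; chr3:89136122-89146815) had 44888 and 27254 counts and 502 and 360 TPM, a log2 ratio of -0.44 (-0.46 to -0.42). *Gckr* (231103; chr5:31297266-31327302) had 8763 and 6654 counts and 118 and 103 TPM, a log2 ratio of -0.12 (-0.17 to -0.07). *Pfkfb1* (18639; chrX:150588230-150643878) had 1398 and 2216 counts and 20.5 and 39.1 TPM. Its log2 ratio of 0.94 (0.85 to 1.04), a ratio of 1.92, was the largest among the 9, and its counting interval reached beyond 2-fold. *Pklr* and *Gckr* were lower and *Pfkfb1* was higher in the AAV-*Wee1-AS* library. With GC and length trends removed, *Pklr* was at -0.01 (-0.00588), *Gckr* at -0.25 and *Pfkfb1* at 0.47, below *Pck1* at 0.62.

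*Slc2a2* (20526; chr3:28697903-28728361), the glucose transporter of hepatocytes, had 15729 and 15540 counts and 186 and 217 TPM, a log2 ratio of 0.26 (0.23 to 0.29). *Gys2* (232493; chr6:142422612-142473130) had 8997 and 9692 counts and 103 and 131 TPM, a log2 ratio of 0.39 (0.34 to 0.43). *Pygl* (110095; chr12:70190815-70227683) had 29461 and 29359 counts and 317 and 373 TPM, a log2 ratio of 0.27 (0.25 to 0.30). The ratio of *Gys2* to *Pygl* in TPM was 0.326 with AAV-GFP and 0.352 with AAV-*Wee1-AS*, a small difference on this scale. With the trends with GC content and length removed (described further on), the log2 ratios of *Gys2* and *Pygl* were farther apart, at 0.20 and -0.34, and that of *Slc2a2* was -0.81. Of the 3 *Gys2* transcripts, the curated one had 7911 and 9179 counts, a log2 ratio of 0.49, while the larger of the predicted ones had 1083 and 489 counts, a log2 ratio of -0.87.

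**Figure D2:**
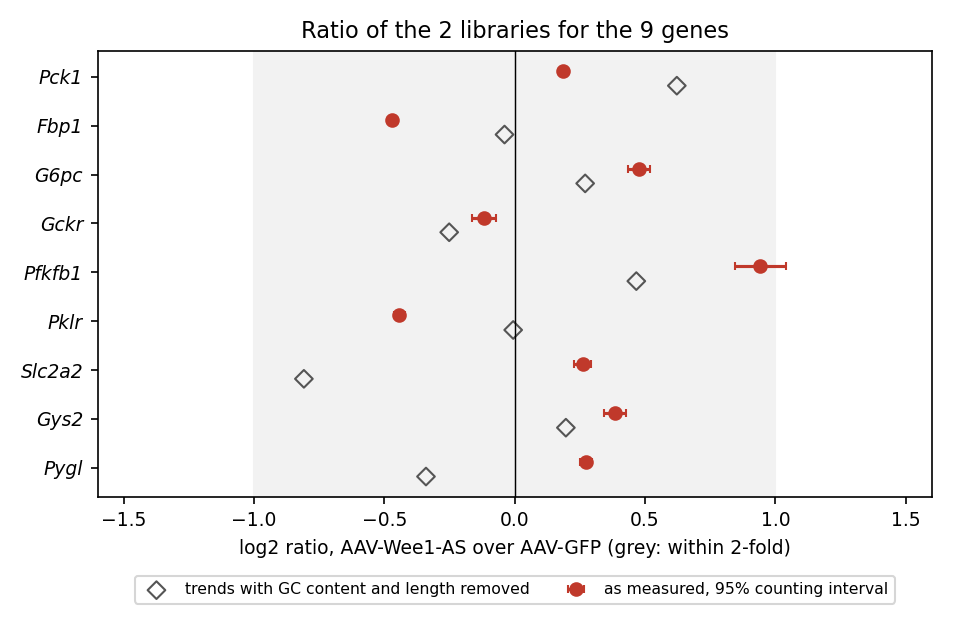
Log2 ratio (AAV-*Wee1-AS* over AAV-GFP) for each of the 9 genes as measured (red points with exact 95% counting intervals) and after removal of the GC and length trends (open diamonds); the grey band marks ratios within 2-fold. No gene lies past 2-fold; before removal *Pfkfb1* is nearest to it at 0.94, and after removal *Slc2a2* is at -0.81.

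Set against each other within a library, 1 pair of opposing steps differed more than its single genes did. These pairs were chosen after their values were seen. *Pck1* over *Pklr* in TPM, the making and the use of phosphoenolpyruvate, was 1.51 with AAV-GFP and 2.33 with AAV-*Wee1-AS*. With GC and length trends removed, *Pck1* was at 0.62 and *Pklr* at -0.01 (-0.00588), so that the pair then differed about as much as *Pck1* alone. *Fbp1* over *Pfkl*, which encodes the liver phosphofructokinase that opposes it, was 66.1 and 73.1 and moved less in proportion.

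Several of the 9 genes have more than 1 start site, and in *Pfkfb1* and *Gckr* the transcripts of different starts did not move together. The *Gys2* transcripts did not share a direction either, but *Gys2* had no promoter entry and its starts were not compared. Over all transcripts past the count minimum, 54.5% passed 2-fold, against 7 of the 23 member transcripts that passed it (3 above, 4 below). Of these 7, 5 were *Pfkfb1* transcripts and the others were the predicted *Fbp1* transcript, below, and a predicted *Gys2* transcript with 3 and 24 counts, above, a log2 ratio of 2.59 (1.56 to 5.65). Estimated counts of overlapping transcripts are shared out by the quantification program, so transcript values rest on that step as well as on the reads. In *Pklr*, the start further upstream gives the red cell (R) form and the downstream one the liver (L) form. Both windows are shown since they tell which form was measured. They are RefSeq promoters of GRCm38.p6 (mm10), plus strand, from 250 bases before to 50 after a start, and capitals mark matches on either strand to the motifs named after them.
Pklr R form, chr3:89135892-89136191: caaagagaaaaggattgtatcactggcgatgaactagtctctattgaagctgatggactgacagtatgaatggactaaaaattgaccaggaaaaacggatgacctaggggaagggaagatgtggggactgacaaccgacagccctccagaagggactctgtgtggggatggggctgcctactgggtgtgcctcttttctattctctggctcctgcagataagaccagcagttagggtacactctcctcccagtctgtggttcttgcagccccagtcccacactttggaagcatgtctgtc
Pklr L form, chr3:89136373-89136672: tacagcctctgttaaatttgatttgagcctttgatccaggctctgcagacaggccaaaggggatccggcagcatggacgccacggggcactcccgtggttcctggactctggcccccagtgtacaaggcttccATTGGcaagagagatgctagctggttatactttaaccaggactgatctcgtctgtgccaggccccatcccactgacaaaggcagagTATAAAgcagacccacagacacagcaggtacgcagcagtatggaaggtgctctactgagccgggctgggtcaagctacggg

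The L window holds a TATA box 31 bases and a reverse CCAAT box 117 bases before the start of its entry, which is that of the curated transcript, and the R window holds no match. The predicted transcript of the L window, with 7514 and 4120 counts, begins between these matches. Transcripts that start in the L window had 42862 counts with AAV-GFP and 26148 with AAV-*Wee1-AS*, a log2 ratio of -0.44 (-0.46 to -0.41). They made up 95.6% and 96.1% of the *Pklr* TPM. Transcripts of the R window had 2026 and 1106 counts, a log2 ratio of -0.59 (-0.70 to -0.49). The liver form therefore made up nearly all of *Pklr* in both libraries, and the lower level with *Wee1-AS* was seen at both starts. Markers of red cells, which use the R form, were lower too: all 5 of 5 (*Hba-a1*, *Hba-a2*, *Hbb-bs*, *Hbb-bt* and *Alas2*) had log2 ratios from -0.93 to -0.35, with a summed level of 3357 and 1789 TPM. With GC and length trends removed, 3 of the 5 were above 0, with a median of 0.05. Their part in the R form was not tested.

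In *Pfkfb1* the start sites moved in opposite directions. The windows of the starts that were higher with *Wee1-AS* are shown, plus strand.
Pfkfb1 curated transcript, chrX:150589666-150589965: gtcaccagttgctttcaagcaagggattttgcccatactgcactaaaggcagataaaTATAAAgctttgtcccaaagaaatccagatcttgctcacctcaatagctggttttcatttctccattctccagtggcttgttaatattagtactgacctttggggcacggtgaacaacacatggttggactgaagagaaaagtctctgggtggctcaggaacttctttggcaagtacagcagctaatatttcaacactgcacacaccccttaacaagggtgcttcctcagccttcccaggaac
Pfkfb1 main start, chrX:150594178-150594477: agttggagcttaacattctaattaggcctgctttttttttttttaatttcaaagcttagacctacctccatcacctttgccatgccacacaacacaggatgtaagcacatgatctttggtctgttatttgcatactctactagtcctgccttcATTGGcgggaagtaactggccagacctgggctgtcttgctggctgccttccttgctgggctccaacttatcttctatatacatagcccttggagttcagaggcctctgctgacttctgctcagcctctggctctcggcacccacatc

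Transcripts that start in the main window, which are 3 predicted models, had 1291 counts with AAV-GFP and 2010 with AAV-*Wee1-AS*, a log2 ratio of 0.92 (0.81 to 1.02). They made up 91.7% and 89.3% of the *Pfkfb1* TPM. The curated transcript, which starts further upstream, had 30 and 193 counts, a log2 ratio of 2.88 (2.40 to 3.57), and its share went from 2.5% to 10.1%. Another window further upstream, chrX:150587993-150588292, had 66 and 10 counts over 3 transcripts, a log2 ratio of -2.25 (-3.57 to -1.48), and its share went from 5.02% to 0.457%. The gene-level difference thus came mainly from the main start by number of counts, while the minor starts differed most in proportion and rest on low counts. The curated window holds a TATA box 193 bases before the start of its RefSeq entry. The main window holds a reverse CCAAT box 97 bases before the start of its entry, but the 3 transcripts counted there begin further upstream, so that the box lies after their starts.

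*Gckr* also had starts that differed in direction. The 3 predicted transcripts that start at position 31297266 had 5623 and 5266 counts, a log2 ratio of 0.18 (0.13 to 0.24), and the curated transcript that starts at 31297563 had 3140 and 1388 counts, a log2 ratio of -0.90 (-0.99 to -0.81). The downstream start made up 39.6% of the *Gckr* TPM with AAV-GFP and 23.6% with AAV-*Wee1-AS*. The lower gene-level value of *Gckr* was thus seen at the downstream start alone. With the most abundant transcript of each gene in place of the sum, *Gckr* was higher in the AAV-*Wee1-AS* library, with a log2 ratio of 0.28, and with curated transcripts alone it was lower, with -0.86.

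**Figure D3:**
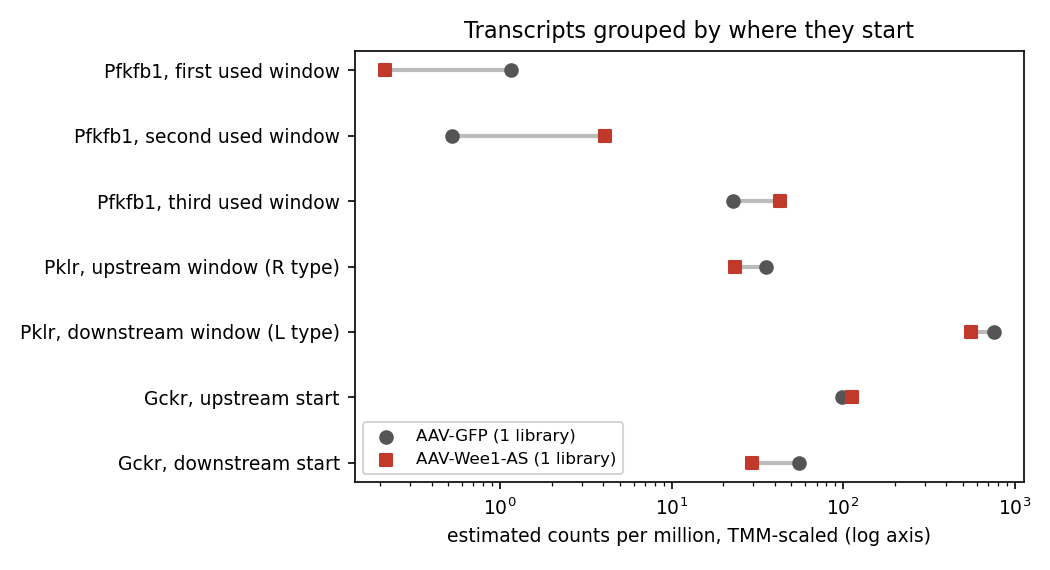
TMM-scaled estimated counts relative to library size (CPM, log axis) of the transcripts of each start of *Pfkfb1* (its upstream, curated and main window, from top), *Pklr* and *Gckr*, with a grey circle for AAV-GFP and a red square for AAV-*Wee1-AS*. The starts of *Pfkfb1* moved in opposite directions, both starts of *Pklr* were lower with *Wee1-AS*, and only the downstream start of *Gckr* was.

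RefSeq promoters were given for 8 of the 9 genes, in 12 windows, and *Gys2* had no entry. Both strands of each were searched for exact matches to a few motifs. The TATA box, searched as TATAAA, was found in 3 windows, those of *G6pc*, 29 bases before its start, of the *Pklr* L form and of the curated *Pfkfb1* transcript, and it occurs in 13.6% of all 32851 promoters of this length. The core of the cAMP response element, searched as TGACGT, was found only in *Pck1*, 91 bases before its start and on the reverse strand, and occurs in 7.51% of promoters. The CCAAT box, searched as CCAAT, was in windows of *Slc2a2*, *Gckr*, *G6pc*, *Fbp1*, *Pfkfb1* and the *Pklr* L form and occurs in 37.4% of promoters. The E-box CACGTG, which occurs in 7.15% of promoters, was in none of the 12 windows. The FOXO site, searched as TGTTTAC and found in 3.65% of promoters, was in none of them either. These are matches of letters and no measure of binding.

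At each step the liver gene made up most of the transcripts of its family in both libraries. *Gys2* held 98.9% of the summed TPM of *Gys1* and *Gys2* with AAV-GFP and 99.1% with AAV-*Wee1-AS*. *Pygl* held 98.0% and 99.1% of the 3 phosphorylases, *Pklr* 91.9% and 95.3% of the pyruvate kinases, and *Slc2a2* 95% and 97.0% of *Slc2a1* to *Slc2a4*. *G6pc* held 92.0% and 96.8% against *G6pc3*, and *Pck1* 99.7% and 99.9% against the mitochondrial *Pck2*. *Fbp1* stayed near all of its pair, with *Fbp2* at 9 and 10 counts. These shares were slightly higher with *Wee1-AS* in each family but that of *Fbp1*. They are not corrected for GC content or length. With these trends removed, the log2 ratio of *Gys2*, 0.20, was below that of *Gys1*, 0.47. That of *Slc2a2*, -0.81, was below those of *Slc2a1*, -0.11, and *Slc2a4*, 0.53, and above that of *Slc2a3*, -1.44. *Pklr*, *G6pc* and *Pck1* stayed above *Pkm*, *G6pc3* and *Pck2*, and *Pygl* lay between *Pygb* and *Pygm*.

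The less abundant paralogs were mostly lower with *Wee1-AS*. *Pkm*, the pyruvate kinase of most other tissues, fell from 3534 to 1197 counts, a log2 ratio of -1.28. *Pck2* fell from 285 to 102 counts, a log2 ratio of -1.19 (-1.55 to -0.87), and *Pygb*, the brain phosphorylase, from 672 to 275 counts, a log2 ratio of -1.01. *Hk3*, a hexokinase of myeloid cells, fell from 559 to 212 counts, a log2 ratio of -1.11. The macrophage markers did not move together with *Pkm* and *Hk3*: 5 of 9 were higher and 4 lower, with log2 ratios from -0.86 to 1.62 (*Marco*), summed levels of 500 and 407 TPM, and none at 0.

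Other paralogs had log2 ratios short of 2-fold: -0.91 for *G6pc3*, -0.52 for *Pygm*, 0.04 for *Gys1*, -0.61 for *Slc2a1*, -0.85 for *Slc2a3*, 0.02 for *Slc2a4*, -0.68 for *Hk1*, -0.79 for *Hk2*, -0.26 for *Pfkfb3* and -0.37 for *Pfkfb4*. Once GC and length trends were removed, *Slc2a3*, with 41 and 18 counts, was past 2-fold at -1.44, and *Pygm* was at 0.00 (0.00108). *G6pc3*, *Gys1*, *Slc2a1* and *Slc2a4* were then at -0.09, 0.47, -0.11 and 0.53. For *Hk1*, *Hk2*, *Pfkfb3* and *Pfkfb4* the values were -0.27, -0.87, -0.51 and -0.56. *Pfkfb2*, another bifunctional enzyme of fructose 2,6-bisphosphate, stood apart. It rose from 214 to 929 counts, a log2 ratio of 2.38 (2.18 to 2.62). Both *Pfkfb1* and *Pfkfb2* were therefore higher with *Wee1-AS*, and *Pfkfb1* held 74.5% and 81.1% of the TPM of *Pfkfb1* to *Pfkfb4*. With curated transcripts alone this share was 7.20% and 30.9%, since the main *Pfkfb1* start has predicted models only.

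The other genes of these pathways were taken from 6 lists with 97 genes, of which 95 passed the count minimum. Of these, 19 passed 2-fold, 11 above and 8 below, against 22.5% of all genes above and 8.43% below. Below 0 on the log2 scale lay 65 of the 95, against 50.1% of all genes, with a median of -0.41. With GC and length trends removed, 57 of the 95 lay below 0, against 50.6% of all genes, with a median of -0.12. The lists differed among themselves.

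Of 25 other genes of glycolysis, 22 were lower and 3 higher, with a median log2 ratio of -0.64. *Pkm*, *Hk3* and *Eno2*, the last with 15 and 3 counts and a log2 ratio of -1.56 (-4.47 to -0.22), fell past 2-fold, and *Pfkfb2* alone rose past it. *Gapdh*, with -0.76, and *Eno1*, with -0.95, were below 0 short of 2-fold (-0.26 and -0.16 with the trends removed). Of 16 other genes that feed or carry gluconeogenesis, 12 were lower and 4 higher, with a median of -0.40 (7 lower and 9 higher, with a median of 0.10, with GC and length trends removed). *Gk*, glycerol kinase, which brings glycerol into the pathway, rose from 2049 to 4800 counts, a log2 ratio of 1.5. *Ldhb*, a lactate dehydrogenase subunit, fell from 199 to 68 counts, a log2 ratio of -1.25, as *Pck2* did. *Pcx*, pyruvate carboxylase, had a log2 ratio of -0.64 (-0.18 with the trends removed).

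The glycogen genes split. Of 21 past the count minimum, 11 were higher and 10 lower, with a median of 0.04, and 4 rose and 3 fell past 2-fold. Those that rose included *Ppp1r3b*, the liver subunit that brings protein phosphatase 1 to glycogen, from 5417 to 11340 counts, a log2 ratio of 1.34 (1.30 to 1.39). *Phkb* and *Phka1*, subunits of phosphorylase kinase, rose from 465 to 1250 counts and from 173 to 308 counts, log2 ratios of 1.70 and 1.10. *Epm2a*, the glycogen phosphatase laforin, rose from 230 to 408 counts, a log2 ratio of 1.10. *Pygb* and *Ppp1r3d*, the latter with 25 and 5 counts, were among those that fell. *Ppp1r3g*, another glycogen-targeting phosphatase subunit, fell from 578 to 81 counts. Its log2 ratio of -2.53 (-2.91 to -2.22) was the lowest in the 6 lists. *Ppp1r3c*, with 0.86, *Gbe1*, the branching enzyme, with 0.80, and *Ugp2*, with 0.64, were above 0 short of 2-fold. With GC and length trends removed they were at 0.42, -0.26 and -0.59.

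None of 8 other glucose and fructose transporters passed 2-fold, and 7 of them were lower, with a median of -0.62 (4 lower and a median of -0.02 with GC and length trends removed). In the fructose and pentose phosphate branches 9 of 11 were lower, with a median of -0.70 (7 lower and a median of -0.03 with the trends removed). *Khk*, ketohexokinase, was at -0.76 (0.11 with the trends removed), and *Rpe*, an epimerase of the pentose phosphate pathway, rose from 240 to 698 counts, a log2 ratio of 1.81 (0.54 with the trends removed). Around pyruvate dehydrogenase 9 of 14 were higher, with a median of 0.26, and 4 rose past 2-fold while none fell. *Pdpr*, a regulatory subunit of pyruvate dehydrogenase phosphatase, rose from 581 to 1592 counts, a log2 ratio of 1.73. *Dld*, the E3 subunit, and *Pdk1*, an inhibitory kinase, had log2 ratios of 1.61 and 1.57, and *Pdp1*, a catalytic subunit of the phosphatase, had 13 and 39 counts. Genes that activate and that inhibit the complex were thus both among those that rose. With GC and length trends removed none of the 14 passed 2-fold, 7 were higher and 7 lower, with a median of 0.06, and *Pdpr*, *Dld*, *Pdk1* and *Pdp1* were at 0.97, 0.49, 0.75 and 0.26.

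**Figure D4:**
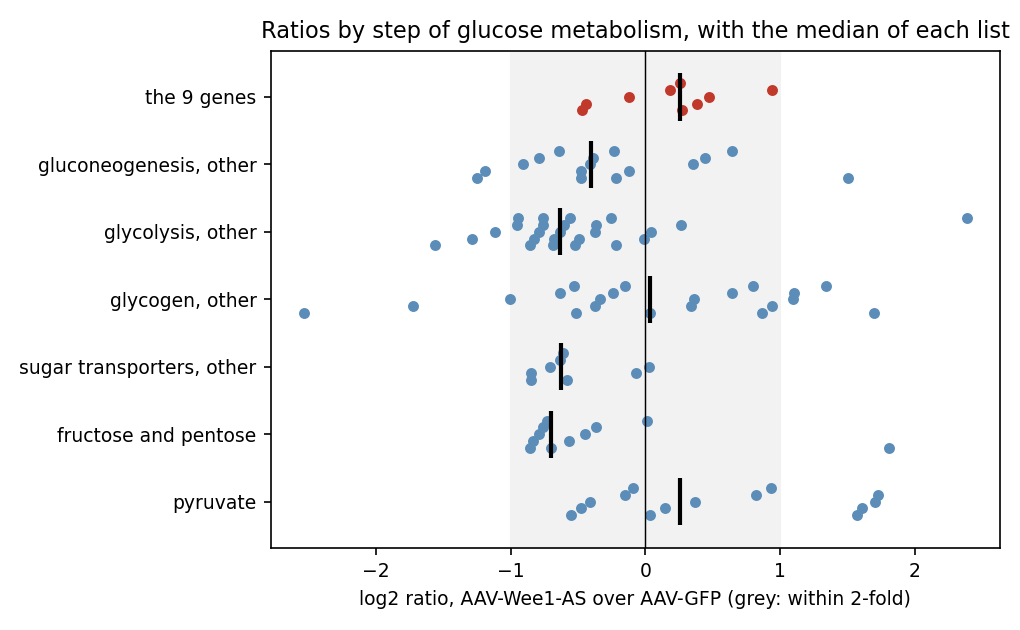
Log2 ratio (AAV-*Wee1-AS* over AAV-GFP) for the 9 genes (red) and the genes of the 6 other pathway lists (blue), 1 point per gene, with a black bar at the median of each list; the grey band marks ratios within 2-fold. The median of the 9 genes was 0.26, and those of the other glycolysis and gluconeogenesis genes were -0.64 and -0.40.

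Of 25 regulators of these pathways, 12 were higher and 13 lower, with a median log2 ratio of -0.05. Past 2-fold, 7 rose and 1 fell, beside 22.5% of all genes above and 8.43% below. Of these 7, *Ppp1r3b* is also counted among the glycogen genes. *Nr3c1*, the glucocorticoid receptor, rose from 671 to 3025 counts, a log2 ratio of 2.45. *Creb1*, which binds the cAMP response element, rose from 96 to 404 counts, a log2 ratio of 2.32, and *Sirt1*, a deacetylase, from 113 to 356 counts, a log2 ratio of 1.91. *Ppargc1a*, a coactivator of gluconeogenic genes, rose from 103 to 216 counts, a log2 ratio of 1.33. *Nr0b2*, the repressor SHP, fell from 2304 to 872 counts, a log2 ratio of -1.12. *Foxo1*, which insulin keeps out of the nucleus, had 2170 and 2139 counts and a log2 ratio of 0.26 (-0.27 with GC and length trends removed), and *Mlxipl*, the carbohydrate response factor that drives *Pklr*, had 5182 and 5012 counts and a log2 ratio of 0.23 (0.51 with them removed). With GC and length trends removed, 19 of the 25 were higher, with a median of 0.21, and 1, *Irs1*, an insulin receptor substrate, stayed past 2-fold at 1.11. *Nr3c1*, *Creb1*, *Sirt1*, *Ppargc1a* and *Nr0b2* then lay within 2-fold, at 0.89, 0.47, 0.96, -0.51 and -0.30.

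Ratios moved with GC content (the share of G and C in the transcript). Across 15109 genes the Spearman coefficient of log2 ratio and GC content was -0.67, and it was 0.37 with length. This is a description across genes of the same 2 libraries, and genes are not independent replicates. The median log2 ratio was 1.44 in the decile of genes with the lowest GC content and -0.67 in that with the highest. The members lay between 41.7% (*Slc2a2*) and 54.2% (*Pklr*), a range in which 29.2% of 9611 genes passed 2-fold. Among the 9, *Pfkfb1* had 45.6%, *Pygl* 45.2%, *G6pc* 47.7%, *Gys2* 48.1%, *Gckr* 48.3%, *Fbp1* 51.9% and *Pck1* 53.0%, and their coefficient was -0.65. What gives rise to this trend was not tested.

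With both trends removed, 14.7% of genes passed 2-fold, 1035 above and 1192 below, against 3572 and 1337 before. None of the 9 did, and their median was -0.01 (-0.00588). *Pck1* had the highest value, 0.62, followed by *Pfkfb1* with 0.47, *G6pc* with 0.27 and *Gys2* with 0.20. *Fbp1*, with -0.04, and *Pklr*, with -0.01 (-0.00588), lay near 0, while *Gckr* was at -0.25. *Pygl* and *Slc2a2* changed sign to -0.34 and -0.81. Relative to genes of the same GC content and length, *Pck1*, *G6pc*, *Pfkfb1* and *Gys2* thus stayed above 0. *Fbp1* and *Pklr* lay near the level of such genes. Of the genes that stayed above 0, only *Pck1* had stood above the quartiles of genes of like GC content before removal, at 0.19 against -0.69 to -0.01. *G6pc* lay within them, at 0.47 against -0.13 to 1.05. So did *Pfkfb1*, at 0.94 against 0.05 to 1.26, and *Gys2*, at 0.39 against -0.26 to 0.77.

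**Figure D5:**
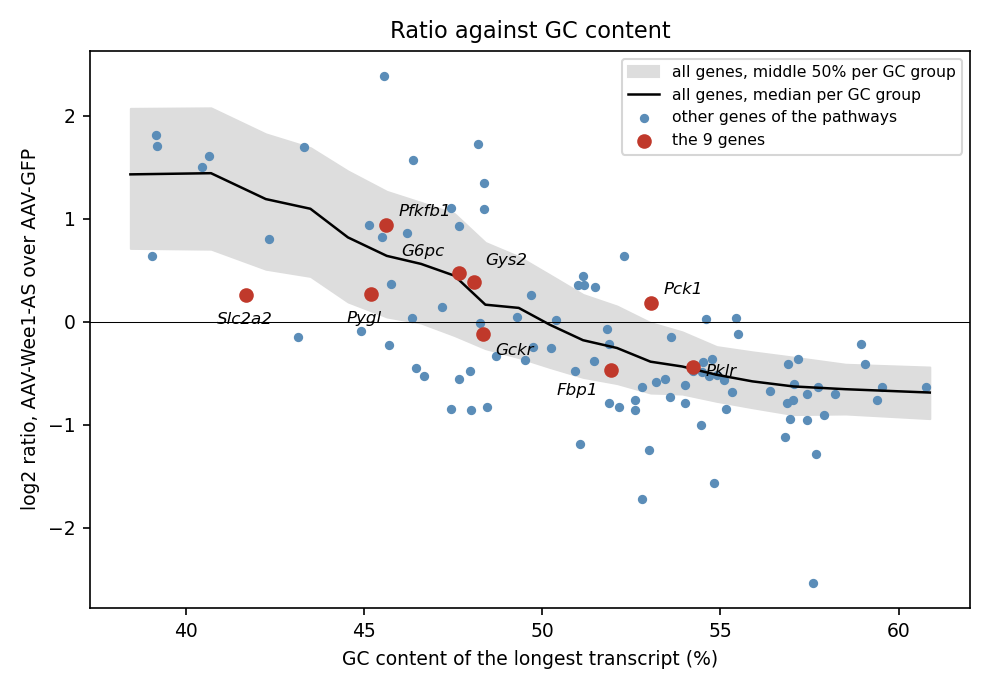
Log2 ratio (AAV-*Wee1-AS* over AAV-GFP) against GC content of the longest transcript (percent), with the 9 genes in red, the other pathway genes in blue, and the median and middle 50% of all genes per group of like GC content as a line and a grey band. Ratios were lower at higher GC content, *Slc2a2* and *Pygl* lay below the line, and *Pck1* lay above it.

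Of the genes outside the 9, *Ppp1r3g* and *Pfkfb2* stayed past 2-fold with both trends removed, with -1.89 and 1.29, and *Ppp1r3b* was at 0.90. *Pck2* stayed past 2-fold too, at -1.09, while *Ldhb*, *Pkm*, *Hk3* and *Pygb* lay within it at -0.69, -0.78, -0.56 and -0.67. *Gk*, *Phkb*, *Phka1* and *Epm2a* also lay within it, at 0.06, 0.18, 0.07 and 0.72. Of the 25 other glycolysis genes, 21 were below 0, with a median of -0.26. In all 6 lists, 9 of 95 genes passed 2-fold, *Pfkfb2* and *Got1*, an aspartate aminotransferase, above and the other 7 below.

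The labelled tissue was checked with marker lists. Of 11 hepatocyte markers, 5 were higher and 6 lower, with a median log2 ratio of -0.05. Their summed level was 101329 and 107596 TPM, of which *Alb*, albumin, held 37459 and 53289 TPM, so that the summed level of the other markers was lower with *Wee1-AS*. With GC and length trends removed, 9 of the 11 were above 0, with a median of 0.20. Further, 9 of 10 muscle and pancreas markers were at 0 in both libraries. The 9 stellate cell markers, with summed levels of 203 and 142 TPM, did not move as 1. Of them, 6 were lower and 3 higher, with a median of -0.57. With GC and length trends removed, 7 were lower and 2 higher, with a median of -0.78. *Col1a1*, *Col1a2*, *Col3a1* and *Acta2*, genes of fibrillar collagens and of smooth muscle actin, fell, with log2 ratios of -2.30, -2.01, -2.01 and -1.71, and all 4 stayed past 2-fold with GC and length trends removed. *Lrat*, which esterifies retinol, rose, with 1.48 (0.05 with the trends removed). *Dcn*, decorin, which held much of the sum, was at 0.35 (-0.78 with the trends removed). Summed levels were 179 and 159 TPM for 7 endothelial ones, 44.1 and 37.9 TPM for cholangiocyte ones and 7.13 and 5.57 TPM for lymphocyte ones. The part of these differences in the values of the 9 genes was not tested. Genes that overlap the members had few counts: *Gm38679* at *Fbp1* had 27 and 117, *Hcn3* at *Pklr* had 0 and 55, and *1700112D23Rik* at *Slc2a2* had 0 in both.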

How the data were processed

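Liver RNA of AAV-GFP and AAV-*Wee1-AS* mice on HFD was sequenced as paired reads of 100 bases from stranded poly-A libraries (RIN over 7.0). For 129299 RefSeq transcripts (mm10) the authors deposited estimated counts, which carry no normalization. Multiplying FPKM by length and by 1 constant per library, and rounding up, gave these counts within 1 for 99.8% of transcripts with a value in either library. The FPKM and TPM values deposited by the authors are scaled by length and library. The submitters' processing notes name Trimmomatic 0.38, HISAT2 2.1.0, SAMtools 1.9 and StringTie 2.1.3b, without their roles. How counts were shared between paralogs and overlapping genes, and whether mates were counted singly, is not given in the sources used here.

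Counts were summed per gene symbol and scaled by TMM (edgeR 4.0.16, R 4.3.3; factors 1.03 and 0.975), with a prior count of 2 for log2 ratios. Genes that reached 10 counts in either library were kept. Intervals are exact (Clopper-Pearson, 95%) and cover counting error only, since each group has 1 library. PCR copies are not independent molecules, so the intervals may be too narrow even for counting error. Those of all 9 genes left out a ratio of 1 with halved counts too. Where a library has 3 counts or fewer, the ratio is given with its interval or left out. GC content came from GENCODE transcripts for 95.3% of genes, and trends with GC content and length were removed by lowess (span 0.3, 5 cycles). Scripts ran in Python 3.11.15 (pandas 2.3.3, numpy 2.4.6, statsmodels 0.14.6, scipy 1.17.1, matplotlib 3.10.9) and were tested on simulated data.

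The members, lists, motifs and tests were chosen with earlier results of these data known. Named were all members and their paralogs, *Foxo1*, *Ppargc1a* and *Mlxipl*, and the up to 3 genes each way (6 pathway lists and the regulators) or 2 each way (fasting, feeding, clock, periportal and pericentral lists) with the largest log2 ratio past 2-fold and at least 100 counts in 1 library. *Gapdh*, *Eno1*, *Eno2*, *Epm2a*, *Ppp1r3d*, *Pdp1*, *Got1*, *Irs1*, *Marco*, *Alb*, the stellate cell markers, *Pcx*, *Ppp1r3c*, *Gbe1*, *Ugp2*, *Khk* and *Pfkl* were added after their values were seen, as were the overlapping genes. Alternatives were the size factors of DESeq2 1.42.0, scaling by library totals, by totals that leave out the 20 most abundant genes or by the upper quartile, other count minimums (none or 50), a prior count of 0.5, TPM and FPKM with a pseudocount of 1, curated transcripts alone, the most abundant transcript alone, and removal of trends. After the data had been seen, halved counts and the background of genes that reached 1000 counts in each library were added. The series' design text speaks of 4 liver samples, of which 2 libraries were analysed here. Values of some single genes are not reported here.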

Additional observations from a re-analysis of the deposited data

How the results depend on the processing

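No paired analysis was possible because each group has 1 library, and for the same reason none could be left out. The directions of the 9 genes (6 higher, 3 lower with *Wee1-AS*) were kept with DESeq2 size factors, library totals (also without the 20 most abundant genes), the upper quartile, other count minimums or prior count, TPM, FPKM and curated transcripts. *Gckr* turned above 0 with the most abundant transcript (0.28) and with the length trend removed (0.03), and *Slc2a2* and *Pygl* turned below 0 with GC and length trends removed. The median log2 ratio of the 9, 0.26, was 0.19 with library totals, 0.13 with the upper quartile, which moved the median of all genes to -0.13, 0.20 with totals without the 20 most abundant genes, 0.22 with TPM, 0.20 with FPKM, 0.30 with curated transcripts, 0.33 with the length trend removed and -0.00588 with GC and length trends removed. No member passed 2-fold except *Pfkfb1*, 1 gene with curated transcripts (log2 ratio 2.91) and 1 with the length trend removed (1.15). Of all genes 4909 passed 2-fold, and 2046 did with TPM, 1336 with FPKM (both with a pseudocount, which damps low genes) and 2227 with GC and length trends removed. Of the 95 genes of the 6 lists 19 passed it, and 10 did with TPM, 11 with FPKM and 9 with GC and length trends removed. Depth gave all 9 genes narrow counting intervals, but not the minor *Pfkfb1* starts, and the spread between mice is unknown.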

Other observations

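Lists of genes that answer to the nutritional state, the clock or the position in the lobule gave these values in the same 2 libraries, beside 22.5% of all genes above 2-fold and 8.43% below. Of 12 genes induced by fasting, 9 were lower and 3 higher with *Wee1-AS*, with a median log2 ratio of -0.30 (-0.37 with GC and length trends removed). *Igfbp1*, which encodes an IGF-binding protein repressed by insulin, fell from 1832 to 697 counts, a log2 ratio of -1.11. *Fgf21*, a hepatokine, fell from 367 to 144 counts, a log2 ratio of -1.06, while *Ppargc1a* and *Asns*, asparagine synthetase, rose, with 1.33 and 1.04. Of 10 genes induced by feeding, 6 were higher and 4 lower, with a median of 0.30 (-0.19 with trends removed). *Elovl6*, a fatty acid elongase, rose from 1506 to 5785 counts, a log2 ratio of 2.22, and *Pnpla3* fell from 137 to 50 counts, a log2 ratio of -1.15. With the trends removed only *Elovl6*, at 1.04, stayed past 2-fold among these 6 genes. Neither list moved as a whole in 1 direction.

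Clock genes had a median of 0.47, with 9 of 14 higher. *Nr1d2* and *Clock* rose, with log2 ratios of 2.62 and 2.56, and *Nr1d1*, a close relative of *Nr1d2*, fell from 7777 to 2733 counts, a log2 ratio of -1.23. With the trends removed the list median was 0.29, *Nr1d2* stayed past 2-fold at 1.25, and *Clock* and *Nr1d1* lay within it at 0.65 and -0.58. The hour at which these livers were taken is not given in the sources used here, and its part in these values was not tested. Of 14 periportal genes, which include *Pck1* and *G6pc*, 7 were higher and 7 lower, with a median of -0.01, and *Cps1*, the entry enzyme of the urea cycle, rose from 63481 to 122243 counts, a log2 ratio of 1.22 (0.43 with the trends removed, with a list median of 0.39). Of 12 pericentral genes 8 were higher, with a median of 0.34, and *Cyp7a1*, the rate-limiting enzyme of bile acid synthesis, and *Rgn*, regucalcin, rose, with log2 ratios of 2.55 and 2.19 (1.12 and 1.23 with the trends removed, with a list median of 0.29).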
